A study of Mus musculus with 8 samples.

Results

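The genes described here are the classical axon guidance ligands and their receptors: the semaphorins and plexins, the Eph receptors and ephrins, the Slits and Robos, and the netrins with *Dcc* and the Unc5 receptors. They were taken by a match of their symbols to these family names, and 67 of the 26263 genes in the count tables matched: 20 semaphorins, 9 plexins, 14 Eph receptors, 8 ephrins, 7 Slits and Robos, and 9 netrins, *Dcc* and Unc5 genes. By role, 35 encode ligands and 32 encode receptors. Of these 67, 65 had enough reads to be tested, and *Epha6* and *Plxnb3* did not.

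Axon guidance proteins are cues and cue sensors that steer growing axons and migrating cells by attraction or repulsion. Semaphorins act mainly through plexins (the secreted class with neuropilins as co-receptors), Slits repel through Robo receptors, and netrins attract through Dcc and repel when Unc5 is present. Ephrins are tethered to the cell surface, by a lipid anchor in the A class and a transmembrane domain in the B class, and signal with the Eph receptor tyrosine kinases in both directions at cell contacts. Most of these families are also used outside the nervous system, in blood vessels, mesenchyme and early embryos.

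Polyadenylated RNA was sequenced from mouse embryonic stem cells (ESCs) and from the neural precursor cells (NPCs) that they had formed by day 12 of *in vitro* corticogenesis, a culture protocol that drives ESCs toward cortical fates. Each stage was represented by 2 hybrid male lines from reciprocal crosses of C57BL/6 and JF1 mice: line BJE2, labelled C57BL/6 x JF1 (B/J), and line JBE6, labelled JF1 x C57BL/6 (J/B). Each of the 4 groups held 2 libraries, and the ESCs had been grown on gelatin in a commercial medium with LIF, BMP4 and an inhibitor of GSK3-β. Both stages carried the same hybrid genomes, the labels name no altered gene, and each cross was 1 line, so that a difference between crosses cannot be told apart from a difference between lines. Nothing in the labels says that the libraries of a group came from separate cultures, so p-values measure the spread between these libraries, which may be technical. They treat the libraries as independent, although same-numbered libraries of the 2 crosses deviated together within each stage (correlation across genes of 0.613 in ESCs and 0.507 in NPCs), and no source used here says what they shared.

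The libraries held from 22537138 to 32706015 reads on genes, and 1 read was worth 0.0306 to 0.0444 CPM (reads per 1000000 reads on genes). The labelled identities were checked with marker lists of 10 genes each. All 10 pluripotency markers were lower in NPCs, and their summed level went from 5753 to 8899 CPM in ESCs to 214 to 551 CPM in NPCs. Of the neural precursor markers, 9 were higher in NPCs, and their sum ran from 208 to 267 CPM in ESCs and from 685 to 1667 CPM in NPCs. Markers of several other cell types were also higher in NPCs: all 10 mesenchyme markers were higher, with a sum of 8.19 to 68.6 CPM in ESCs and 1021 to 2509.9 CPM in NPCs, and all 10 trophoblast markers were higher, with a sum of 3.68 to 17.3 CPM in ESCs and 430.3 to 1048 CPM in NPCs. No gene of the mesenchyme, trophoblast, neuron or endothelium list was below 1 CPM in every NPC library. In endoderm 8 of the 9 markers tested were higher (sum 89.6 to 174 CPM in NPCs), and in neurons 8 of 10 with 1 lower. In endothelium (299 to 978 CPM in NPCs) and neural crest (179 to 391 CPM) 4 of 10 each were higher, a share near the 37.5% of all genes tested, and 2 and 1 were lower. Neuron markers summed to between 298 and 449 CPM in ESCs. Among NPC libraries they summed to 437, 1694, 1252 and 2344 CPM, in the order B/J replicates 1 and 2 and J/B replicates 1 and 2. The first of these sums lay within the ESC range. Endothelium markers summed to 978, 525, 341 and 299 CPM in the same order. B/J replicate 1 thus had the lowest sum for neurons and the highest for endothelium, and trophoblast markers were also highest there, at 1048 CPM. In these bulk samples, fewer cells of a type and less RNA per cell cannot be told apart.

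Most axon guidance genes rose with the passage from ESCs to NPCs. With edgeR's quasi-likelihood test over all 8 libraries (adjusted p below 0.05, Benjamini-Hochberg over 16399 genes), 49 of the 65 tested were higher in NPCs, or 75.4%, against 37.5% of all genes tested (69.4% of all genes were called in either direction). In the other direction 5 were lower, or 7.69%, against 31.9% of all genes. The 5 were *Epha2*, *Epha1*, *Sema4b*, *Robo4* and *Ephb3*, the last of which turned to a log2 fold change of 0.01 when scaled to library totals and 0.17 when scaled to *Gapdh*, *Gusb* and *Tbp*. The median log2 fold change was 2.20 over the members and 0.17 over all genes, with a range over the members from -4.6 (*Epha2*) to 9.93 (*Dcc*). That median of all genes became 0.65 on library totals and 0.80 after scaling to those 3 housekeeping genes, under which 51 members were higher and 4 lower, and 52 higher and 3 lower, respectively. Of all genes called, 54.0% were higher as fitted, 70.1% on library totals and 75% on the housekeeping scale. For 50 members every NPC library was above every ESC library in CPM (46.7% of all genes), and for 3, *Epha2*, *Sema4b* and *Robo4*, every NPC library was below (20.5% of all genes).

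**Figure D1:**
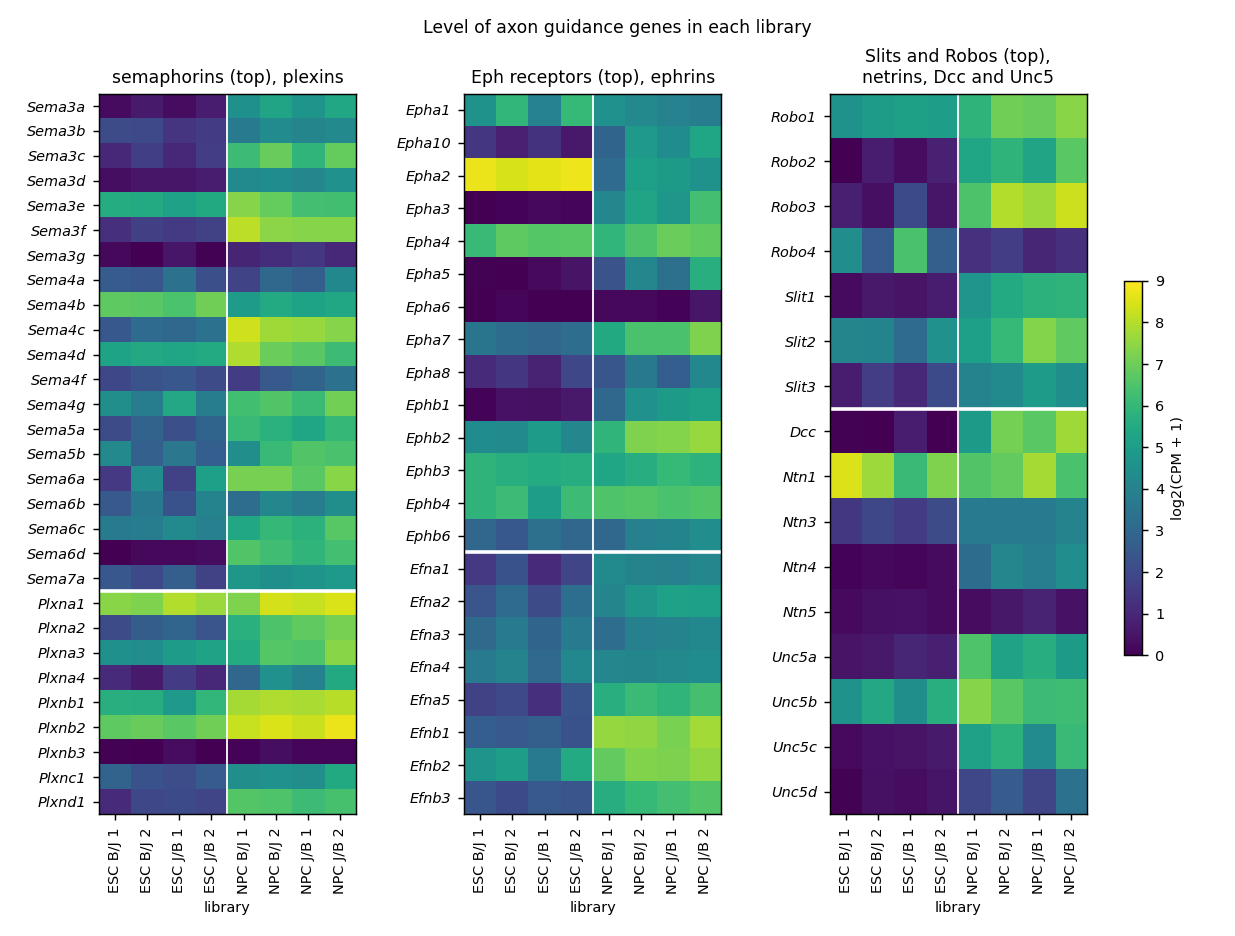
Level of each of the 67 genes in each of the 8 libraries, as log2(CPM + 1), with genes grouped by family and the white vertical line between ESC and NPC libraries. Most rows brighten from left to right, while Epha2, at 352 to 436 CPM in ESCs and 7.85 to 32.6 CPM in NPCs, darkens.

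Both ligands and receptors were mostly higher in NPCs. Among the 35 ligands 27 were higher in NPCs and 1 lower, and among the 30 receptors tested 22 were higher and 4 lower, *Ephb3* with its flip under the other scalings included. By family, 16 of 20 semaphorins were higher and 1 lower, 7 of 8 plexins higher, 6 of 8 ephrins higher, 6 of 7 Slits and Robos higher and 1 lower, and 7 of 9 netrins, *Dcc* and Unc5 genes higher. Among the Eph receptors 7 of 13 (53.8%) were higher and 3 (23.1%) lower, *Ephb3* among the latter. Of all genes tested 37.5% were higher and 31.9% lower, and the families were not tested against each other.

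**Figure D2:**
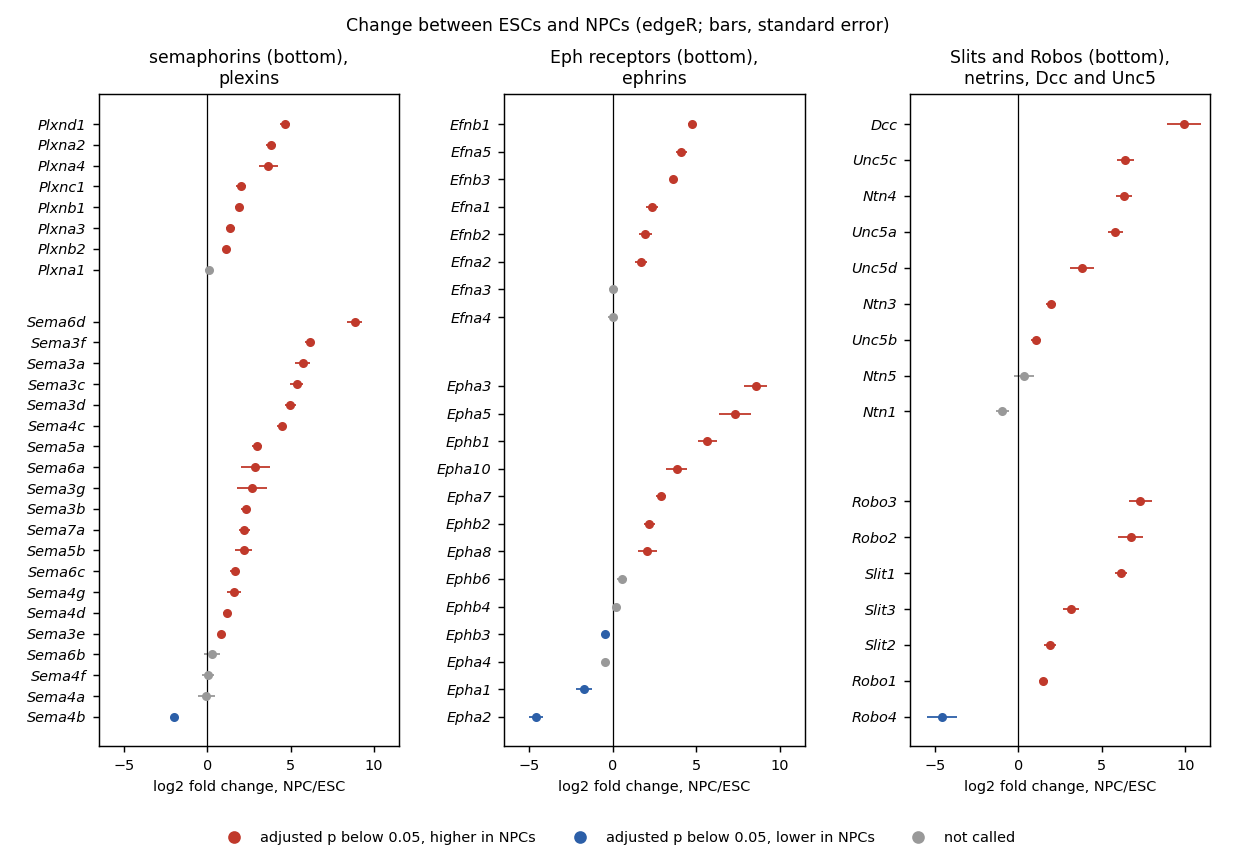
Log2 fold change of NPCs over ESCs for the 65 genes tested (points; bars, standard error of the edgeR fit), with red for genes called higher, blue for genes called lower and grey for genes not called. The 49 red points reach 9.93 (Dcc) and the 5 blue points reach -4.60 (Epha2); the blue point of Ephb3, at -0.47, moves to 0.01 with library totals and 0.17 with Gapdh, Gusb and Tbp.

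Promoter windows (250 bases before to 50 bases after the start of the canonical transcript, GENCODE vM39, read from the GRCm39 genome) are shown for 5 genes with large changes, the opposed neighbours *Robo4* and *Robo3* among them. Capitals mark CpG dinucleotides, and each sequence runs 5′ to 3′ on the strand of its gene. The windows are *Epha2* (chr4:141028290-141028589, plus strand), *Robo4* (chr9:37312943-37313242, plus strand), *Robo3* (chr9:37344632-37344931, minus strand), *Sema3f* (chr9:107587625-107587924, minus strand) and *Efnb1* (chrX:98179430-98179729, plus strand).
Epha2: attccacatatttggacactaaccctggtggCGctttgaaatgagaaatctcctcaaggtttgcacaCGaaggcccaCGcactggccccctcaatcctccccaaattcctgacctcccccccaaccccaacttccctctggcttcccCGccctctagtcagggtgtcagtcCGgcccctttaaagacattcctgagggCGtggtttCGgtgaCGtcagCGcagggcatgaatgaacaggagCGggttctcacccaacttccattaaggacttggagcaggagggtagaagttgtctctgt
Robo4: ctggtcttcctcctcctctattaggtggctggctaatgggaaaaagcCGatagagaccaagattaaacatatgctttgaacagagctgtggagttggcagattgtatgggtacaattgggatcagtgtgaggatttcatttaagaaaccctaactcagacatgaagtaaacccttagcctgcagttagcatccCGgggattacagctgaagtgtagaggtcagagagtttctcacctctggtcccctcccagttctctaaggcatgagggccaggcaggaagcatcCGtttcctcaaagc
Robo3: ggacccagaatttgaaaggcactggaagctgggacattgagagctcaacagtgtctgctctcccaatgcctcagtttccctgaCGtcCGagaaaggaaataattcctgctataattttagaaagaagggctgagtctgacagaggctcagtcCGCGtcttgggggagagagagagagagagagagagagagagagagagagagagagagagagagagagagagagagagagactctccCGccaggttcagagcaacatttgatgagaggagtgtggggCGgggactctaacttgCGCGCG
Sema3f: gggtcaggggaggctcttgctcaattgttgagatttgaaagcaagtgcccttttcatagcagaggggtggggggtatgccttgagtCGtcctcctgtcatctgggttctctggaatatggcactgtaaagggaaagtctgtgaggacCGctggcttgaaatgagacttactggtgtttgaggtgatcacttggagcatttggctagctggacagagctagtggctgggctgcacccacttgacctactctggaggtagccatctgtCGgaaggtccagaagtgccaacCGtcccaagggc
Efnb1: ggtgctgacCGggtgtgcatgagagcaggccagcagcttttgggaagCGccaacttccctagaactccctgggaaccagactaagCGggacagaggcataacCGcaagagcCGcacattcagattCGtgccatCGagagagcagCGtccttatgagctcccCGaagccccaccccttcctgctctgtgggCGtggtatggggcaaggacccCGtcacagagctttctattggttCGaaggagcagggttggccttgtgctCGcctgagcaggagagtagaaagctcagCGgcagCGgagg
They held 10, 3, 9, 4 and 15 CpGs. Over all 67 members the median was 17 CpGs per window, against 12 over the windows of 19072 counted protein-coding genes, and 23.9% of members had fewer than 10 CpGs against 41.8% of all. The 49 members higher in NPCs had a median of 18 CpGs and the 5 lower members a median of 13, *Ephb3* among them with the flip described above. A GC box (GGGCGG or its complement CCGCCC) stood in 65.7% of the members' windows and in 46.6% of all windows. The letters TATAAA, or TTTATA on the other strand, stood in 4.48% of the members' windows and in 11.8% of all. CAGCTG, which reads the same on both strands, stood in 19.4% and 15%, and CATCTG or CAGATG in 10.4% and 15.1%. A match is only a run of letters in the window.

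The semaphorins, the largest family of ligands, were mostly higher in NPCs. All 7 secreted class 3 genes were higher in NPCs, as were both class 5 genes and 3 of 4 class 6 genes. In class 4, which is membrane-bound, 3 of 6 (50%) were higher and 1 (16.7%) was lower. Of all genes tested 37.5% were higher and 31.9% lower, and the classes were not tested against each other. In the same order of libraries within each stage, *Sema3f*, a secreted repellent that binds neuropilin 2, was at 1.35, 2.23, 1.86 and 2.45 CPM in ESCs and 274, 173, 165 and 166 CPM in NPCs. Its groups were far apart, with B/J replicate 1 above the other 3 NPC libraries (log2 fold change 6.14, SE 0.26, adjusted p = 9.20e-06). *Sema6d*, a transmembrane semaphorin, had 0, 0.146, 0.133 and 0.226 CPM in ESCs and 92.1, 74.9, 57.7 and 78.7 CPM in NPCs, so that no ESC library came near any NPC library (log2 fold change 8.84, SE 0.44, adjusted p = 1.14e-05). The ESC libraries held only a few reads of it, and without B/J replicate 2 of ESCs the fitted log2 fold change was 11.03. *Sema4c*, a ligand of plexin B2, was at 4.56, 7.88, 7.23 and 9.51 CPM in ESCs and 325, 208, 194 and 165 CPM in NPCs (log2 fold change 4.45, SE 0.25, adjusted p = 1.54e-05). As with *Sema3f*, the highest NPC value of *Sema4c* was in B/J replicate 1, the library with the highest sums of endothelial and trophoblast markers, and the part of those cells in the result was not tested.

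*Sema4b* was the semaphorin that fell. It had 109, 104, 86.6 and 133 CPM in ESCs and 30.1, 43.8, 36.6 and 39.7 CPM in NPCs, with no overlap (log2 fold change -2.0, SE 0.18, adjusted p = 5.83e-05), and its log2 fold change was -2.0 within each cross. *Sema4d*, which signals through plexin B1, went from 36.4, 42.1, 38.2 and 44.1 CPM to 242, 126, 103 and 71.3 CPM, and here too B/J replicate 1 of NPCs stood highest (log2 fold change 1.18, SE 0.24, adjusted p = 0.00277). Part of the *Sema4d* exons (13.7%) lies opposite those of *Secisbp2*, and the sources used here do not say whether reads were counted by strand. The same limit holds for *Sema4g* (12.7%, opposite *Mrpl43*) and *Ephb6* (14.7%, opposite *Trpv6*). *Sema6a* split the ESC libraries by replicate number, at 1.85, 20.2, 2.35 and 32.6 CPM, and ran at 143, 141, 103 and 170.0 CPM in NPCs. Both second ESC replicates were more than 2-fold above both first ones, and all NPC libraries were higher still (log2 fold change 2.87, SE 0.86, adjusted p = 0.018). Its log2 fold change was 4.14 without B/J replicate 2 and 4.29 without J/B replicate 2 of ESCs, and with no filter on low counts the adjusted p was 0.0800. With both crosses summed per replicate number it was 0.0568.

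The other class 3 genes rose by 5.35 (*Sema3c*), 5.72 (*Sema3a*), 4.98 (*Sema3d*), 2.29 (*Sema3b*) and 0.83 (*Sema3e*) on the log2 scale. *Sema3e*, the ligand of plexin D1, read 46.3, 43.8, 34.9 and 43.7 CPM in ESCs and 164, 116, 78.3 and 76.8 CPM in NPCs. *Sema3g* was called (log2 fold change 2.69, SE 0.91, adjusted p = 0.0293) at NPC values of only 0.909, 1.28, 1.65 and 1.05 CPM. It lost its call in more of these omissions than any other member: leaving out any of 6 single libraries (B/J replicate 2 and J/B replicate 2 of ESCs, and each of the 4 of NPCs) raised its adjusted p to between 0.0505 and 0.0782, and the log2 fold change was 4.89 without B/J replicate 1 and 3.99 without J/B replicate 1 of ESCs. Both class 5 genes, *Sema5a* and *Sema5b*, rose, by 3.0 and 2.18, as did *Sema6c* (1.63), *Sema4g* (1.61) and *Sema7a* (2.21), a lipid-anchored semaphorin. *Sema4a*, *Sema4f* and *Sema6b* were not called, with log2 fold changes of -0.07, 0.03 and 0.26 and overlapping groups.

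Among the plexins, the semaphorin receptors, expression was already high in ESCs for some members and nearly off for others. *Plxna1* did not pass the test, with 169, 154, 246 and 199.7 CPM in ESCs and 154, 339, 301 and 356 CPM in NPCs. Its groups overlapped through B/J replicate 1 of NPCs (log2 fold change 0.1, SE 0.24, adjusted p = 0.729), and it was called higher only when scaled to *Gapdh*, *Gusb* and *Tbp* (log2 fold change 0.76, adjusted p = 0.0396). *Plxnb2*, a receptor used by neural progenitors, went from 108, 118, 103 and 133 CPM to 303, 355, 308 and 423 CPM with no overlap (log2 fold change 1.11, SE 0.15, adjusted p = 0.000343). Per transcript length *Plxnb2* had the highest mean of the plexins at both stages, with 42% and 38.3% of the family's RPKM (CPM per kilobase of transcript, on library totals). It stood at 17.3 ± 1.99 RPKM in ESCs and 51.9 ± 8.34 RPKM in NPCs (SD, n = 4). In ESCs its share ran from 36.6% to 46.5% by library and that of *Plxna1* from 29.6% to 42.6%, so its lead there was within the spread.

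*Plxnd1*, the receptor of *Sema3e* and best known in blood vessels, was at 1.14, 2.88, 3.02 and 2.72 CPM in ESCs and 96.6, 91.9, 71.5 and 81.4 CPM in NPCs. All NPC libraries were far above ESCs, with B/J replicates above J/B replicates (log2 fold change 4.67, SE 0.29, adjusted p = 1.88e-05). *Plxna2* rose from 3.13, 5.33, 6.61 and 4.15 CPM to 51.7, 88.3, 111 and 142 CPM (log2 fold change 3.82, SE 0.29, adjusted p = 3.61e-05), lowest among NPCs in B/J replicate 1. *Plxna3* (1.38), *Plxna4* (3.66), *Plxnb1* (1.88) and *Plxnc1* (2.03), log2 fold changes all, were likewise higher without overlap. *Plxnb3* had between 0 and 7 reads in any library.

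The Eph receptors changed in make-up more than in sum. Summed over the 14 genes they stood at 632 to 754 CPM in ESCs and 366 to 876 CPM in NPCs, a ratio of the means of 0.938 on library totals and 0.670 after TMM scaling. The A class summed to 0.584 and the B class to 2.36 times the ESC level on library totals, and to 0.417 and 1.69 times after TMM scaling. *Epha2*, a receptor of early embryonic and epithelial cells, had 421, 352, 394 and 436 CPM in ESCs and 7.85, 32.6, 29.3 and 23.3 CPM in NPCs. Per length it was the first of all members in ESCs, at 102 ± 9.46 RPKM (SD, n = 4), and stood at 5.92 ± 2.8 RPKM in NPCs. The groups did not overlap, and B/J replicate 1 was the lowest NPC library (log2 fold change -4.6, SE 0.43, adjusted p = 7.30e-05); without B/J replicate 2 of NPCs the log2 fold change was -5.27. Its share of the family's RPKM, 64.1% ± 6.01 in ESCs (SD, n = 4), was 5.28% ± 2.12 in NPCs, where *Ephb4* (20.5% ± 6.99) and *Epha4* (13.9% ± 2.19) had the highest means. These 2 did not differ beyond their spread, nor did *Epha4* from *Epha7* (11.7% ± 2.61), *Ephb2* (11.4% ± 2.46) or *Ephb3*, whose mean lay between those of *Epha7* and *Ephb2* (SD 2.15). The pluripotency sum of the NPC libraries was 214, 551, 344 and 357 CPM in the same order; its lowest and highest libraries were those of *Epha2*, the other two stood in the opposite order, and the part of pluripotent cells in this result was not tested.

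*Epha1* also fell. It was at 23, 61.6, 15 and 64 CPM in ESCs, with both second replicates over 2-fold above both first ones, and at 22.7, 18, 15.1 and 13 CPM in NPCs, which overlapped the ESC range (log2 fold change -1.73, SE 0.46, adjusted p = 0.0111). The log2 fold change was -1.06 without J/B replicate 2 of ESCs, the adjusted p was 0.0692 when scaled to *Gapdh*, *Gusb* and *Tbp*, and 36.9% of its exon bases lie opposite exons of *Zyx*. *Ephb3* read 56.4, 50.5, 45.4 and 48 CPM in ESCs and 37.9, 47.5, 63.9 and 55.4 CPM in NPCs, and its call (log2 fold change -0.47, SE 0.14, adjusted p = 0.0175) was lost without B/J replicate 1 of ESCs, B/J replicate 1 of NPCs or J/B replicate 2 of NPCs (adjusted p = 0.0711, 0.0621 and 0.0671) and with both crosses summed per replicate number (0.0557), besides turning to 0.01 and 0.17 under the scalings given above. *Epha4*, a receptor of both ephrin classes, was at 65.2, 109, 97.9 and 99.5 CPM and 59.9, 89.6, 121 and 110.1 CPM and did not pass the test (log2 fold change -0.47, SE 0.19, adjusted p = 0.0556). With both crosses summed per replicate number *Epha4* was not called either. Its log2 fold change was 0.00375 on library totals and 0.16 with the housekeeping genes. It was called lower with the replicate block (-0.47, adjusted p = 0.0433), without B/J replicate 1 of ESCs (-0.62, adjusted p = 0.0216) and without B/J replicate 2 of NPCs (-0.62, adjusted p = 0.0298).

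The Eph receptors with the largest rises came from near 0. *Epha3* had 0, 0.0730, 0.133 and 0.113 CPM in ESCs and 16.8, 37.4, 25.9 and 77.9 CPM in NPCs, highest in J/B replicate 2 (log2 fold change 8.56, SE 0.68, adjusted p = 4.09e-05). Since ESCs held only 8 reads of it in all, the ratio of pooled TMM-scaled reads is also given, 354-fold (95% interval 179 to 819), an interval that covers counting error only, and the log2 fold change was 10.30 without B/J replicate 2 of ESCs. *Epha5* had 0.0356, 0, 0.177 and 0.377 CPM in ESCs and 3.99, 16.9, 9.08 and 50.7 CPM in NPCs, a wide spread among NPC libraries that still left the groups apart (log2 fold change 7.33, SE 0.95, adjusted p = 0.000335). Its log2 fold change was 8.62 without B/J replicate 1 of ESCs, 6.64 without B/J replicate 2 of NPCs and 6.48 without J/B replicate 2 of NPCs.

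Further rises were those of *Epha7* (2.89), *Epha8* (2.06), *Epha10* (3.82), *Ephb1* (5.65) and *Ephb2* (2.2), as log2 fold changes. *Epha8* lost its call without B/J replicate 1 of ESCs (adjusted p = 0.0517) or J/B replicate 2 of NPCs (0.0510). The log2 fold change of *Epha10* was 3.14 without B/J replicate 2 of NPCs, and that of *Ephb1* was 6.41 without B/J replicate 2 of ESCs. *Ephb2*, at 19.7, 19, 29.7 and 16.9 CPM in ESCs and 57.9, 154, 159 and 193 CPM in NPCs, lies 93.4 kb from *Epha8* on chromosome 4. *Ephb4*, known from veins, had 56.2, 70.1, 31.3 and 70.2 CPM and 91.3, 95, 83.8 and 92.3 CPM. Its NPC values were all above its ESC values in CPM, yet the TMM-scaled change was 0.21 and not called (adjusted p = 0.431), whereas it was called at 0.68 on library totals (adjusted p = 0.0388), at 0.82 with the housekeeping genes (adjusted p = 0.0311) and at 0.54 without J/B replicate 2 of ESCs (adjusted p = 0.0160). *Ephb6*, which lacks kinase activity, was not called as fitted (log2 fold change 0.56) but was on library totals (1.05), with the housekeeping genes (1.22) and without J/B replicate 1 of ESCs and B/J replicate 1 of NPCs together (0.87, adjusted p = 0.0493). *Epha6* had at most 12 reads in a library.

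The ephrins, the ligands of these receptors, were mostly higher in NPCs. All 3 ephrin-B genes and 3 of 5 ephrin-A genes were higher, and the ephrin-B sum went from 22.0 to 52.6 CPM in ESCs to 352 to 492 CPM in NPCs. The ephrin-A sum went from 19.5 to 44.4 CPM to between 109.9 and 168 CPM, and the classes were not tested against each other. *Efnb1* was at 5.37, 4.78, 5.64 and 3.77 CPM in ESCs and 191, 179, 146 and 213 CPM in NPCs, with little spread within either stage (log2 fold change 4.74, SE 0.22, adjusted p = 9.60e-06). It became the first ephrin by length-scaled level, with 34.9% of the family's RPKM, where *Efna4* had been first in ESCs with 31.4%. *Efnb2* had 24.5, 32, 11.7 and 44.6 CPM in ESCs, lowest in J/B replicate 1, and 113, 157, 150.1 and 187 CPM in NPCs (log2 fold change 1.95, SE 0.37, adjusted p = 0.00208), and the log2 fold change was 2.56 without J/B replicate 2 of ESCs. *Efna5*, a repellent in topographic maps, was at 2.35, 2.92, 1.38 and 4.11 CPM and 49.9, 69.5, 58.9 and 80.8 CPM with wide separation (log2 fold change 4.11, SE 0.34, adjusted p = 4.92e-05).

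*Efnb3* (3.62), *Efna1* (2.32) and *Efna2* (1.7) rose on the log2 scale, and *Efna3* (0.04) and *Efna4* (-0.0090) did not pass the test. *Efna1*, *Efna3* and *Efna4* lie side by side on chromosome 3 and on the same strand, with 10.4 kb between *Efna3* and *Efna4* and 32.8 kb between *Efna1* and *Efna3*. Per length *Efna1* had 1.61 ± 0.787 RPKM in ESCs (SD, n = 4), below *Efna3* (4.04 ± 1.25) and *Efna4* (7.88 ± 2.65), and in NPCs the 3 stood at 10.9 ± 1.33, 5.85 ± 1.66 and 10.9 ± 0.893 RPKM, with *Efna1* and *Efna4* not apart beyond their spread.

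The Slits, secreted repellents, were all higher in NPCs. *Slit1* went from 0.214, 0.547, 0.399 and 0.604 CPM to 25.3, 44, 53.8 and 56.8 CPM (log2 fold change 6.16, SE 0.35, adjusted p = 1.54e-05), *Slit2* by 1.91 and *Slit3* by 3.16 on the log2 scale. Of their receptors, *Robo1* was read at both stages, with 22.8, 30.6, 33.6 and 31.3 CPM in ESCs and 57.5, 132, 119 and 168 CPM in NPCs, lowest among NPCs in B/J replicate 1 but without overlap (log2 fold change 1.5, SE 0.27, adjusted p = 0.00153). *Robo2* had 0, 0.620, 0.222 and 0.754 CPM in ESCs and 39.1, 57.2, 37.1 and 102 CPM in NPCs (log2 fold change 6.72, SE 0.76, adjusted p = 0.000167), and its log2 fold change was 9.93 without B/J replicate 2 of ESCs.

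The neighbours *Robo3* and *Robo4* changed in opposite directions. *Robo3* (chr9:37326965-37344737, minus strand), which modulates midline crossing by commissural axons, was at 0.747, 0.292, 3.02 and 0.453 CPM in ESCs and 89.2, 249.9, 206 and 319.8 CPM in NPCs. J/B replicate 1 was the highest ESC library and B/J replicate 1 the lowest NPC library (log2 fold change 7.31, SE 0.69, adjusted p = 7.85e-05), and without the former the log2 fold change was 8.29. *Robo4* (chr9:37313193-37326411, plus strand), known from endothelium, was at 20.5, 5.18, 84.8 and 5.66 CPM in ESCs and 1.43, 2.11, 0.978 and 1.33 CPM in NPCs. Both first ESC replicates were over 2-fold above both second ones, and every NPC library was below them all (log2 fold change -4.59, SE 0.89, adjusted p = 0.00248); the log2 fold change was -3.9 without B/J replicate 1 and -3.05 without J/B replicate 1 of ESCs. The 3′ ends of the genes are 0.554 kb apart and face each other, and the annotated genes do not overlap. As a share of the RPKM of Slits and Robos, *Robo4* stood at 39.3% ± 29.3 in ESCs (SD, n = 4) and *Robo3* at 51% ± 5.27 in NPCs. The endothelial sum was 41.0 to 103 CPM in ESCs and 299 to 978 CPM in NPCs, where *Robo4* was lower. The 2 highest ESC libraries of that sum, B/J replicate 1 (66.9 CPM) and J/B replicate 1 (103 CPM), were also those of *Robo4*. The part of endothelial cells in this result was not tested.

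*Ntn1*, which encodes netrin 1, the best known attractant of the family, had its highest value in an ESC library but did not pass the test. It read 364, 202, 66.7 and 151 CPM in ESCs and 93.7, 114, 220.2 and 85.1 CPM in NPCs, with wide and overlapping spreads (log2 fold change -0.95, SE 0.37, adjusted p = 0.051). By DESeq2 the adjusted p was 0.0186, by limma-voom 0.0473 and by edgeR without robust estimation 0.0492. It was also called without B/J replicate 2 of ESCs (adjusted p = 0.0426), J/B replicate 1 of ESCs (0.0238) or J/B replicate 1 of NPCs (0.0132), and with both crosses summed per replicate number (0.0151). Within B/J its log2 fold change was -1.93 (edgeR adjusted p = 0.0183) and within J/B 0.02 (adjusted p = 0.974). *Ntn3* (1.96) and *Ntn4* (6.34) rose on the log2 scale, and *Ntn5*, below 1 CPM in every library and with 32.9% of its exon bases opposite *Sec1*, was not called.

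The netrin receptors, *Dcc* and all 4 Unc5 genes, were higher in NPCs over both crosses, *Unc5b* with the limits given below. *Dcc* was at 0.0356, 0, 0.666 and 0 CPM in ESCs and 28.8, 137, 102 and 211 CPM in NPCs, the largest fitted rise of all members (log2 fold change 9.93, SE 1.02, adjusted p = 0.000111). With 16 reads in all ESC libraries, 15 of them in J/B replicate 1, the pooled TMM-scaled ratio was 538-fold (95% interval 331 to 942). That interval covers counting error only and not the spread between libraries, for the log2 fold change was 11.23 without B/J replicate 1 of ESCs, 13.16 without J/B replicate 1 of ESCs and 9.17 without B/J replicate 2 of NPCs. The neuron marker sum was 437, 1694, 1252 and 2344 CPM in the NPC libraries, and *Dcc* was 1 of 19 members with the same order of these libraries (29.2% of 65, against 12.9% of all genes); the part of neurons in these results was not tested. *Unc5c* had 0.178, 0.365, 0.399 and 0.566 CPM and 34.5, 54, 19.3 and 66.4 CPM, lowest among NPCs in J/B replicate 1 (log2 fold change 6.41, SE 0.52, adjusted p = 4.36e-05).

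*Unc5b*, also an endothelial netrin receptor, was at 23.2, 42.5, 21.4 and 49.2 CPM in ESCs and had 164, 102, 71 and 73.5 CPM in NPCs. The groups were apart, with B/J replicate 1 highest (log2 fold change 1.06, SE 0.30, adjusted p = 0.0146), but the call was lost without B/J replicate 1 of ESCs (adjusted p = 0.0532). Within B/J the *Unc5b* log2 fold change was 1.56 (edgeR adjusted p = 0.0173) and within J/B 0.56 (adjusted p = 0.289). It was 0.62 without J/B replicate 1 of ESCs and B/J replicate 1 of NPCs together. *Unc5a*, at 90.8, 35.1, 48.1 and 29 CPM in NPCs (5.81 on the log2 scale), was also highest in B/J replicate 1. That NPC library had the highest endothelial and trophoblast marker sums, and the part of those cells in these results was not tested. *Unc5d* stayed low, at 2.79, 4.97, 2.66 and 9.21 CPM in NPCs, and its log2 fold change was 3.82, or 4.92 without B/J replicate 2 of ESCs.

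**Figure D3:**
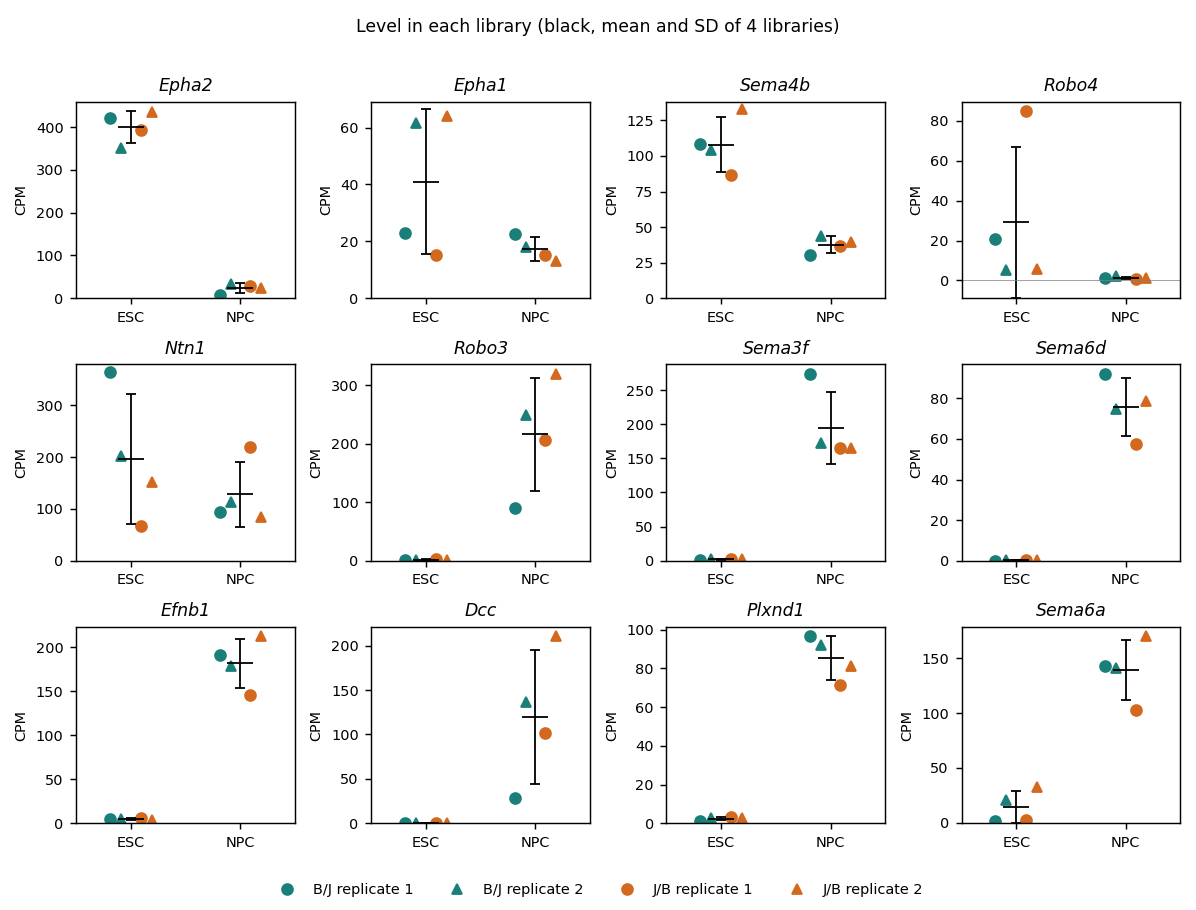
CPM of 12 members in each library (circles, replicate 1; triangles, replicate 2; green, B/J; orange, J/B), with the mean and SD of the 4 libraries of each stage in black. Epha2 and Sema4b fall without overlap, Sema3f and Efnb1 rise without overlap, Epha1 and Ntn1 overlap between stages, and the ESC libraries of Robo4 spread from 5.18 to 84.8 CPM.

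The make-up of each family by length-scaled level was different between stages in 4 of 6 families, in that another member had the highest mean share. Among Slits and Robos the first place in ESCs was within the spread, with *Robo4* at 39.3% ± 29.3, from 15.4% to 76.6% by library, and *Robo1* at 35.7% ± 16.1. The first semaphorin was *Sema4b* in ESCs (42.3% ± 4.49 of the family's RPKM; SD, n = 4) and *Sema3f* in NPCs (18.7% ± 2.96), closely followed by *Sema4c* (16.9% ± 3.60), from which it did not differ beyond the spread. *Ntn1* stayed first among netrins, *Dcc* and Unc5 genes, with 79.1% ± 10.2 and then 28.4% ± 12.5, ahead of *Unc5b* (23.8% ± 9.66), a gap within the spread. *Plxnb2* had the highest mean share of the plexins at both stages. In ESCs its lead (42% ± 4.09) over *Plxna1* (33.9% ± 5.96) was within the spread.

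**Figure D4:**
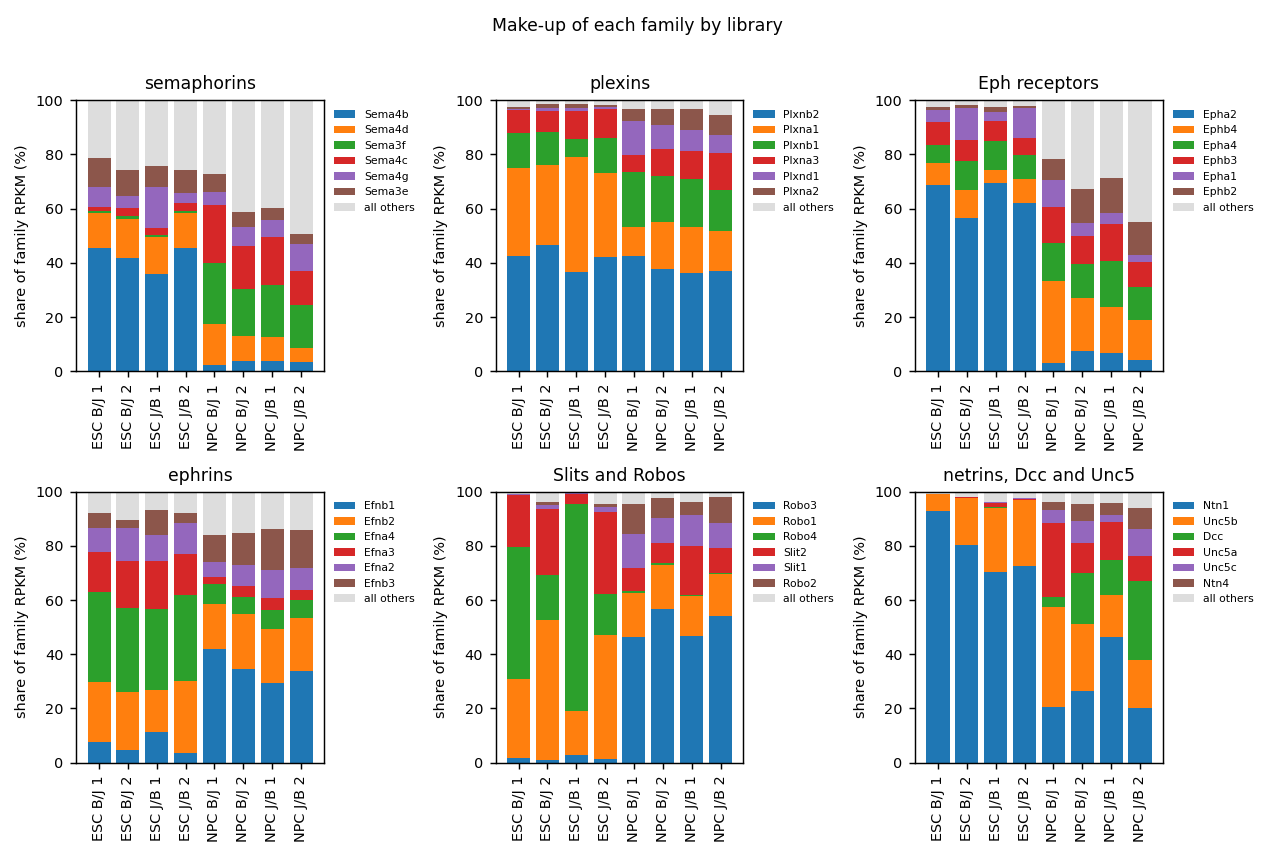
Share of each family's summed RPKM held by its 6 leading members, and by all others in grey, in each of the 8 libraries. The Epha2 share goes from 64.1% to 5.28% of Eph receptors on average, and Robo3 holds 51% of Slits and Robos in NPCs.

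Within single crosses the same kind of counts was found. In B/J 44 members were higher and 5 lower, against 30.1% and 25.6% of all genes (55.8% in either direction), and in J/B 42 were higher and 4 lower, against 29.1% and 25.3% (54.5% in either direction), by edgeR with adjusted p below 0.05. No member was called for a different change between the crosses by edgeR's interaction test (0.0% of all genes), and none by DESeq2 or limma-voom. At an unadjusted p below 0.05 the interaction named 3, *Ntn1* (log2 difference J/B minus B/J of 1.95, SE 0.75), *Sema4d* (-1.17, SE 0.47) and *Ephb3* (0.67, SE 0.28), all with an edgeR adjusted p of 1.0, and 3 of 65 is 4.62% against 3.49% of all genes at that threshold. Between J/B and B/J within ESCs no member was called by edgeR (0.0% of all genes), DESeq2 or limma-voom, and 1, *Ntn1*, had an unadjusted p below 0.05 (log2 difference -1.44, SE 0.53), which is 1.54% against 2.11% of all genes. Within NPCs no member was called either by edgeR (0.0061% of all genes), DESeq2 or limma-voom, and 3 had an unadjusted p below 0.05: *Sema3e* (log2 difference -0.91, SE 0.22), *Sema4d* (-1.14, SE 0.33) and *Slit2* (1.42, SE 0.48), with edgeR adjusted p of 0.734, 0.734 and 0.755. That share, 4.62%, was below the 6.4% of all genes. Because same-numbered libraries of the crosses deviated together within a stage, the crosses were also compared with the replicate number as a block within each stage, a setting added after seeing the data that leaves 2 residual degrees of freedom. Again no member was called by edgeR in ESCs, in NPCs or for the interaction (0%, 0.0244% and 0% of all genes). In these 8, 29 and 11 of 65 had an unadjusted p below 0.05 (12.3%, 44.6% and 16.9%, against 5.33%, 18.7% and 10.5% of all genes). With 2 libraries per group, a p that misses the threshold does not show that the crosses acted alike.

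The libraries of a stage also differed in how many members they led. Among NPCs, after TMM scaling, J/B replicate 2 was the highest library for 38 of the 65 members (58.5%, against 29.5% of all genes) and B/J replicate 1 the lowest for 38 (58.5%, against 33.6%). In ESCs J/B replicate 2 was the highest for 30 (46.2%, against 22.6%) and J/B replicate 1 for 21 (32.3%, against 30.1%). The median log2 difference of J/B over B/J was 0.21 over the members in ESCs and 0.37 in NPCs, and 0.00329 and 0.0111 over all genes. In ESCs, *Robo4* was over 2-fold higher in both first than in both second replicates, as by number were *Dcc* and *Sema3g*, whose ESC reads were too few to compare libraries (1, 0, 15 and 0 and 4, 0, 10 and 1 reads), and *Epha1*, *Robo2*, *Sema3a*, *Sema6a*, *Sema6b* and *Slit3* over 2-fold higher in both second ones (3 and 6 of 65, or 4.62% and 9.23%, against 2.77% and 3.56% of all genes). In NPCs 0 and 1 member, *Epha8*, did so (0% and 1.54%, against 2.58% and 0.909% of all genes). Without J/B replicate 1 of ESCs and B/J replicate 1 of NPCs together, a setting chosen after seeing the data, 49 members were higher and 4 lower.

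Genes of the wider pathway were also mostly higher in NPCs. Of 71 genes of partner proteins and cytoplasmic effectors, 55 (77.5%) were higher and 6 (8.45%) lower, against 37.5% and 31.9% of all genes, with a median log2 fold change of 1.96 against 0.17. Of the 26 partner receptors and ligands at the cell surface 24 were higher and 0 lower, and of the 45 effectors 31 were higher and 6 lower. *Lrrc4c*, which encodes the netrin-G1 ligand, had 0 reads in every ESC library and 0.779, 3.65, 1.74 and 9.72 CPM in NPCs. Against a floor of 3 reads over the 4 ESC libraries, its pooled NPC reads were 129-fold higher on library totals and 92.4-fold after TMM scaling. The lower 95% limit of the pooled TMM-scaled ratio was 74.9-fold. None of these values covers the spread between libraries. *Ntng2* and *Ntng1*, the netrin-G genes, and *Chl1*, a cell adhesion molecule of the L1 family, rose from a few ESC reads, so the pooled TMM-scaled ratios are given beside the fits, with intervals that cover counting error only and not the spread between libraries. *Ntng2*, with 4 ESC reads, all in B/J replicate 2, rose 114-fold (95% interval 44.3 to 419), with a fitted log2 fold change of 7.77 that was 4.64 within B/J and 10.89 within J/B. *Ntng1* rose 93.7-fold (95% interval 47.4 to 218), fitted 6.58, and *Chl1* 178-fold (95% interval 96.8 to 372), fitted 7.46. *Nrp1*, the co-receptor of class 3 semaphorins, went from 0.570, 1.31, 0.799 and 1.51 CPM to 26.7, 32.5, 39.4 and 71.5 CPM (log2 fold change 4.8, SE 0.37, adjusted p = 3.74e-05), while *Nrp2* just missed the test (log2 fold change 0.86, SE 0.35, adjusted p = 0.0583). Among the falls, *Rnd1*, a GTPase that binds plexins, had 8.33, 7.37, 8.52 and 6.11 CPM in ESCs and 0.747, 1.58, 2.78 and 1.56 CPM in NPCs (log2 fold change -2.73, SE 0.38, adjusted p = 0.000425). *Cfl1*, the actin-severing cofilin, went from 1138, 1217, 1015 and 1225 CPM to 721, 701, 726 and 742 CPM without overlap (log2 fold change -1.14, SE 0.11, adjusted p = 8.72e-05). *Mical1* (-0.74) and *Enah* (-0.69) were called lower after TMM scaling with overlapping groups, but not on library totals (-0.25 and -0.21; adjusted p = 0.372 and 0.424) or under the housekeeping scaling (-0.0870 and -0.0552; adjusted p = 0.769 and 0.864). Of the 6 pathway genes called lower, *Rnd1* and *Cfl1* were the 2 that kept the call under both of these scalings.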

How the data were processed

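RNA had been extracted from ESCs and day 12 NPCs, and libraries had been made with TruSeq Stranded mRNA or NEBNext Ultra II kits and sequenced on HiSeq4000 or NovaSeq6000 instruments; the sources used here do not assign kits or instruments to libraries. The authors mapped reads with TopHat2 to mm39 with JF1 variants masked, kept proper pairs, and deposited raw read counts per gene, both alleles together, in 1 table per library. Their processing notes name HTSeq, with the strand setting not given. Rows that name no gene (5.76 to 10.9% for reads on no feature) were left out of library sizes. Members and gene lists were chosen with earlier results of these data known.

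Counts were tested with edgeR 4.0.16 in R 4.3.3 (TMM, filterByExpr with a minimum count of 10, robust quasi-likelihood F-test, contrasts of 4 group means, Benjamini-Hochberg adjustment over 16399 genes, threshold 0.05). TMM factors were 0.820 to 0.885 in ESCs and 1.14 to 1.21 in NPCs. DESeq2 1.42.0, limma-voom (limma 3.58.1), other scalings and filters, each library left out and a replicate block were alternatives; 2 settings on the replicate number within a stage were added after seeing the data. CPM and RPKM were computed here from deposited counts on library totals, without the TMM factors, and with GENCODE vM39 canonical transcript lengths. Their changes from ESCs to NPCs therefore lie above those of the TMM-scaled fits. A precision of 1 read is 0.0306 to 0.0444 CPM. Per-library values were given in each family for the 2 members of highest mean CPM and the 2 largest rises and falls among those called with a mean of at least 1 CPM, and in the pathway list the 4 largest rises and falls were named; *Sema4d*, *Sema6a*, *Sema3e*, *Sema3g*, *Ephb2*, *Ephb3*, *Ephb4*, *Efna1*, *Efna3*, *Slit1*, *Unc5a*, *Unc5d*, *Nrp1* and *Nrp2* were added after their values were seen. The methods of the study state no test for these counts.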

Additional observations from a re-analysis of the deposited data

Results flagged for a closer look

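In 6 of the 130 groups of 4 libraries examined (65 members at 2 stages), 1 library stood apart from the other 3 by Dixon's criterion at 95%, and chance gives about 1 in 20 such groups. In ESCs these were *Robo3* in J/B replicate 1 (3.02 CPM), *Dcc* in J/B replicate 1 (0.666 CPM) and *Plxnd1* in B/J replicate 1 (1.14 CPM, below the others). In NPCs they were *Ntn3* in J/B replicate 2 (15.1 CPM), *Plxnc1* in J/B replicate 2 (43.1 CPM) and *Sema3f* in B/J replicate 1 (274 CPM). For *Ephb3*, on library totals only, every NPC library was below every ESC library in B/J and above in J/B. In the TMM-scaled fit both crosses had the same sign, with log2 fold changes of -0.80 in B/J (edgeR adjusted p = 0.0107) and -0.13 in J/B (adjusted p = 0.585). The interaction of stage and cross was 0.665 on the log2 scale (edgeR, unadjusted p = 0.0443, adjusted p = 1.0).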

How the results depend on the processing

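Over the other settings tried, members higher in NPCs numbered 47 to 52 and members lower 3 to 6, the 3 when scaled to *Gapdh*, *Gusb* and *Tbp*. Leaving out 1 library gave 47 to 49 higher and 4 to 6 lower. Of 71 pathway genes, 6 were lower, and 2 on library totals, 2 with the housekeeping scaling and 2 at a threshold of 2-fold. Of 54 called members, the fold of 15 moved by more than 1.5 times without 1 library, and 4 lost the call (*Epha8*, *Ephb3*, *Sema3g*, *Unc5b*). With the replicate number as a block, 49 were higher and 6 lower, and *Epha4* was called. Deviations of same-numbered libraries correlated across genes at 0.0474 to 0.0919 between stages, so numbers did not pair libraries there, but at 0.613 between crosses in ESCs and 0.507 in NPCs. With both crosses therefore summed per replicate number, 2 sums a stage, 47 members were higher and 5 lower. Of all 16399 genes 58.3% were called in that fit, 5072 higher and 4483 lower. There *Ephb3*, *Sema3g* and *Sema6a* lost the call (edgeR adjusted p = 0.0557, 0.0964 and 0.0568) and *Epha4* was not called. *Ntn1* was called lower (-1.19, adjusted p = 0.0151), and *Sema4a* was 0.0185. Several log2 fold changes near 0 changed sign, and the cause was not tested. On library totals and with the housekeeping scaling *Epha4* was 0.00375 and 0.16, *Ephb3* 0.0145 and 0.17, *Efna4* 0.46 and 0.60, and *Sema4a* 0.43 and 0.64. *Efna4* (-0.0090 as reported) was 0.00895 by DESeq2, 0.0242 by limma-voom, 0.0173 with a mean of at least 1 CPM, 0.00672 with no low-count filter, 0.0333 with the replicate block and 0.00919 with RLE size factors. *Sema4f* was -0.0280 by limma-voom and -0.0214 with the block. Without J/B replicate 1 of ESCs and B/J replicate 1 of NPCs together, *Ephb4* was -0.0187 and *Sema4a* 0.64. Leaving out 1 library gave -0.0131 to 0.54 for *Ephb4*, -0.17 to 0.27 for *Efna3*, -0.24 to 0.34 for *Efna4*, -0.0570 to 0.61 for *Ntn5*, -0.23 to 0.31 for *Plxna1*, -0.59 to 0.38 for *Sema4a*, -0.32 to 0.27 for *Sema4f* and -0.0665 to 0.90 for *Sema6b*. The summed level of plexins was 3.05 times that of ESCs on library totals and 2.19 times after TMM scaling, and that of semaphorins 4.80 and 3.46 times. Depth limits *Epha6*, *Plxnb3*, *Ntn5* and *Sema3g*, whose reads were few in every library.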
